A study of Mus musculus with 27 samples.

Results

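The effect of a small interfering RNA (siRNA) against Has2 was examined in mouse livers without chemical injury, by comparing 3 mice that received the Has2 siRNA in lipid nanoparticles (siHAS2-LNP) with 3 mice that received a luciferase siRNA in the same kind of particle (siLuc-LNP). These 6 libraries were all those labelled siHAS2 or siLuc without CCl4 among the 27 liver libraries of the series, and 14114 of the 55414 annotated genes had a mean of at least 10 counts over the 27 libraries and were tested. All mice were 8-week-old female Balb/c animals with no engineered allele. The mice of both siRNA groups were given olive oil into the peritoneum, the vehicle of CCl4, and particles through the tail vein over the course of the experiment. Luciferase is not a mouse gene, so siLuc-LNP served as the non-targeting control for the particle and its cargo. The 4 control mice had the same oil and phosphate-buffered saline in the tail vein, with no particle. The study's methods also report gavage of control mice with a carboxymethyl cellulose slurry and mention no gavage of the siRNA groups. Whether that covers these 4 control mice is not clear from the methods. A further 4 CCl4 + siHAS2-LNP mice and 4 CCl4 + siLuc-LNP mice had the solvent carbon tetrachloride, which damages hepatocytes, in place of plain oil, and they share no library with the comparison in uninjured liver. The particles (an ionisable lipid named C12-200, DSPC, cholesterol and a PEG lipid) were injected systemically and carried no cell-specific element, and the RNA came from whole liver.

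Hyaluronan is a long sugar polymer of the extracellular matrix, built at the plasma membrane by the hyaluronan synthases Has1, Has2 and Has3, cut by hyaluronidases and bound by receptors such as Cd44 and, on the liver sinusoidal endothelium, Stab2. In the liver the main producers of hyaluronan are hepatic stellate cells, the vitamin A-storing cells that become matrix-forming myofibroblasts after injury. An siRNA is a short RNA duplex whose guide strand is loaded into an Argonaute protein and directs the cutting of a fully complementary mRNA, and the bases near its 5′ end, the seed, can also repress other mRNAs that match the seed in their 3′ UTR. Lipid nanoparticles given into a vein are taken up largely by the liver, and the comparison asked which liver transcripts differed between a Has2-directed and a non-targeting cargo when no injury was present.

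The strands of the Has2 siRNA and its target are shown because they define the intended target and the seed used further on. Both strands were listed as 18 bases before their 3′ overhang, each 1 base short of a 19-base duplex. Capitals mark guide bases 2 to 8, counted from the 5′ end, and the bases of Has2 that pair with them.
sense strand: uuacggaaauguuugcaa
guide strand: aUUGCAAAcauuuccgua
Has2 site: uuacggaaaugUUUGCAAu
The site was found once in the Has2 transcript ENSMUST00000050544.9, at chr15:56545288-56545306 of GRCm39 on the minus strand, in the coding sequence within exon 2 of 4. The sequence of the luciferase siRNA was not used here.

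Has2 mRNA was not detectable in uninjured liver at this depth. Has2 had 0 counts in each of the 3 siHAS2-LNP mice, the 3 siLuc-LNP mice and the 4 control mice, and 3 counts in all, in 2 of the 27 libraries. With 3 counts as the upper limit that a count of 0 allows in a library, levels of up to 0.12 to 0.165 CPM (read counts scaled to a common library size) remained possible in the siHAS2-LNP mice and up to 0.128 to 0.165 CPM in the siLuc-LNP mice, and such limits cover counting error only. No fold change can be given for Has2, and whether the siRNA lowered its target could not be read from these libraries. Total counts ran from 18146198 to 25015526 in the siHAS2-LNP libraries and from 18194261 to 23523015 in the siLuc-LNP libraries.

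The other synthases were close to the same limit. Has1 had 3, 0 and 0 counts in the siHAS2-LNP mice and 0, 0 and 1 in the siLuc-LNP mice. Has3 had 4, 1 and 2 counts against 5, 2 and 2. Neither gene reached the count minimum, so no test was made of them.

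Among genes that break down or bind hyaluronan, some, such as Hyal1, Hyal2, Cd44 and Stab2, were readily counted in every library and others, such as Spam1 and Cemip, were at or near 0, and none of those tested passed the threshold (an adjusted p under 0.05 by the quasi-likelihood test of edgeR, adjusted after Benjamini and Hochberg across the 14114 genes). Hyal1, a lysosomal hyaluronidase, stood at 12.3, 12.1 and 11.8 CPM in the siHAS2-LNP mice and at 13.7, 13.4 and 13.1 CPM in the siLuc-LNP mice. The groups did not overlap, but the log2 fold change was only -0.15 (95% confidence interval -0.55 to 0.25, edgeR adjusted p = 0.867). Hyal2, a membrane-anchored hyaluronidase, stood at 54.0, 52.2 and 52.8 CPM against 49.4, 57.7 and 67.6 CPM, with overlapping groups (log2 fold change -0.14, edgeR adjusted p = 0.874).

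Cd44, the main cell surface receptor for hyaluronan, was at 17.9, 19.9 and 17.9 CPM in the siHAS2-LNP mice, 14.4, 12.2 and 14.4 CPM in the siLuc-LNP mice and 8.96, 7.67, 8.46 and 9.85 CPM in the control mice. The 3 groups did not overlap, and the difference between the siRNAs was 0.44 on the log2 scale (95% confidence interval -0.12 to 1.00, edgeR adjusted p = 0.661). Stab2, the endocytic clearance receptor of the sinusoids, was at 29.7, 30.7 and 28.3 CPM against 47.1, 30.0 and 43.2 CPM and was the single hyaluronan gene with an unadjusted p under 0.05 (log2 fold change -0.44, edgeR adjusted p = 0.495). Of the 29 hyaluronan genes listed, 22 were tested, 0 passed by edgeR, DESeq2 or limma-voom, and their median log2 fold change was -0.02 (-0.11 to 0.10 without single mice) beside -0.0137 over all genes tested.

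The matrix genes read out in fibrosis did not separate the siRNAs either. Col1a1, a chain of type I collagen, was at 6.34, 7.69 and 8.31 CPM in the siHAS2-LNP mice and 5.72, 9.23 and 15.7 CPM in the siLuc-LNP mice (log2 fold change -0.47, 95% confidence interval -1.59 to 0.66, edgeR adjusted p = 0.852). Col3a1, the type III collagen chain, was at 33.0, 38.9 and 38.0 CPM against 32.8, 42.2 and 61.7 CPM (log2 fold change -0.32, edgeR adjusted p = 0.887). Acta2, the smooth muscle actin of myofibroblasts, was at 0.364, 0.755 and 1.14 CPM against 0.286, 4.56 and 0.703 CPM. Acta2 was thus near the detection limit, its log2 fold change was -1.32 with a standard error (SE) of 1.05, and it turned to 0.50 without siLuc-LNP mouse 2. The intervals for Col1a1 and Acta2 are wide, so even differences of 1 log2 unit in these genes were not detectable with 3 mice a group.

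Over the whole transcriptome, 6 genes passed the threshold, which is 0.0425% of those tested. Colec12, Klhl42, Ppp1r10 and Gpt2 were higher in siHAS2-LNP than in siLuc-LNP livers (0.0283% of genes), and Nceh1 and Taok3 were lower (0.0142%). In GRCm39 coordinates of the annotation, Nceh1 lies at chr3:27236975-27338764, Taok3 at chr5:117258153-117413284, Klhl42 at chr6:146992744-147014276, Gpt2 at chr8:86218810-86255577 and Ppp1r10 at chr17:36227326-36243441, all on the plus strand, and the counts are of reads over their exons. At an unadjusted p under 0.05 there were 539 genes higher (3.82%) and 723 lower (5.12%). DESeq2 called 77 genes (0.547% of 14083 with an adjusted p) and limma-voom with sample weights called 171 (1.21%), and both sets held all 6 edgeR calls. The CPM values of the 3 siHAS2-LNP mice did not overlap with those of the 3 siLuc-LNP mice in 2281 genes, 16.2% of those tested, so a lack of overlap alone is common in these livers.

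**Figure D1:**
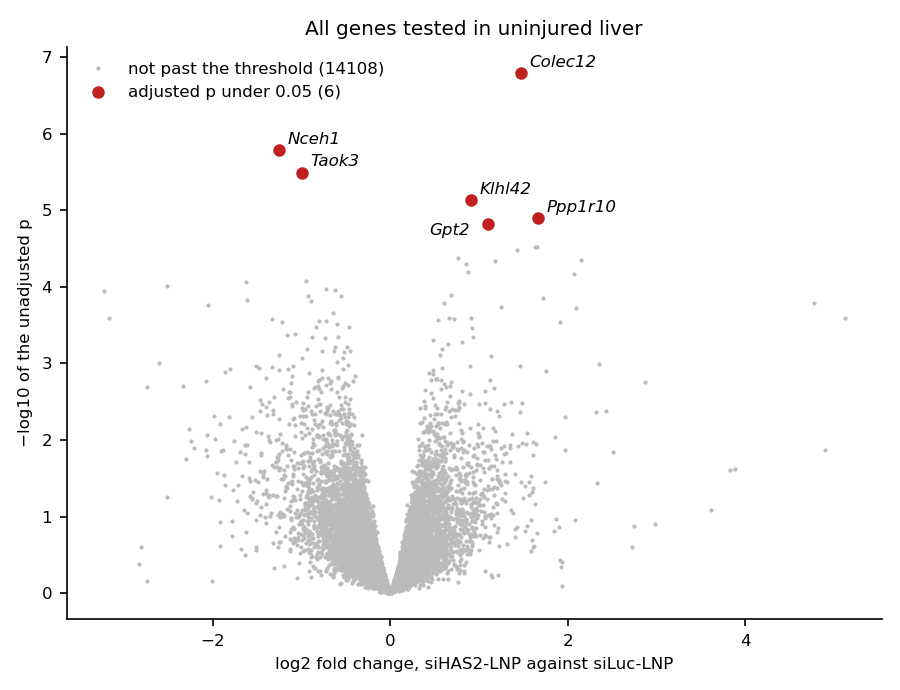
Each point is 1 of the 14114 genes tested, with the log2 fold change of siHAS2-LNP against siLuc-LNP in uninjured liver on the x axis and the −log10 of the unadjusted edgeR p on the y axis. The 6 genes with an adjusted p under 0.05 are in red, and 4 of them lie on the positive side.

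Colec12 and Gpt2 code for proteins of uptake and amino acid metabolism. Colec12, a collectin and scavenger receptor that binds sugars and modified lipoproteins, stood at 75.8, 66.8 and 72.9 CPM in the siHAS2-LNP mice, 22.0, 29.5 and 26.0 CPM in the siLuc-LNP mice, and 67.3, 66.5, 61.2 and 60.9 CPM in the control mice. The lowest siHAS2-LNP mouse was far above the highest siLuc-LNP mouse, and the siLuc-LNP mice also lay below every control mouse. The means were 71.8 ± 4.61 CPM (SD, n = 3) and 25.8 ± 3.72 CPM (SD, n = 3), a 2.78-fold difference (log2 1.48, SE 0.20, edgeR adjusted p = 0.00226). It passed whichever single mouse was left out, which none of the other 5 did.

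Gpt2, the mitochondrial alanine transaminase that interconverts alanine and pyruvate, stood at 154, 122 and 161 CPM in the siHAS2-LNP mice, 68.2, 65.5 and 70.0 CPM in the siLuc-LNP mice, and 210, 138, 129 and 245 CPM in the control mice. Again the siLuc-LNP mice were below all the others, while the siHAS2-LNP mice overlapped with the control mice. The difference between the siRNAs was 2.15-fold (log2 1.10, SE 0.21, edgeR adjusted p = 0.0356).

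The other higher genes act in the nucleus and in protein turnover. Ppp1r10, a nuclear regulatory subunit of a protein phosphatase that acts on chromatin and transcription, stood at 52.1, 46.9 and 35.7 CPM in the siHAS2-LNP mice, 13.5, 13 and 15.9 CPM in the siLuc-LNP mice, and 12.7, 9.03, 11.8 and 26.5 CPM in the control mice. It was the one gene of the 6 with siLuc-LNP mice inside the control range and siHAS2-LNP mice above it (3.17-fold, log2 1.67, SE 0.31, edgeR adjusted p = 0.0353). Klhl42, a substrate adaptor of a cullin ubiquitin ligase, stood at 9.73, 11.3 and 9.87 CPM against 6.87, 4.44 and 5.14 CPM, and at 8.7, 9.8, 9.48 and 10.3 CPM in the control mice. The difference was 1.88-fold (log2 0.91, SE 0.16, edgeR adjusted p = 0.0258), with the siLuc-LNP mice below both other groups.

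The lower genes were a lipid hydrolase and a kinase. Nceh1, which hydrolyses neutral cholesterol esters, stood at 14.3, 13.5 and 12.7 CPM in the siHAS2-LNP mice, 31.4, 31.5 and 33.5 CPM in the siLuc-LNP mice, and 25.5, 18.3, 14.0 and 22.0 CPM in the control mice. The siRNA groups lay on opposite sides of the control mean, 2.38-fold apart (log2 -1.25, SE 0.20, edgeR adjusted p = 0.0116). Taok3, a serine/threonine kinase upstream of stress-activated kinases, stood at 52.5, 41.5 and 37.8 CPM against 99.1, 85.8 and 77.2 CPM, with 60.0, 50.7, 48.0 and 70.6 CPM in the control mice. Its siLuc-LNP mice were above every control mouse (1.99-fold between the siRNAs, log2 -0.99, SE 0.17, edgeR adjusted p = 0.0151).

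These calls rest on few mice. With 1 mouse left out at a time, the number of genes passing was 2, 1 and 1 without siHAS2-LNP mouse 1, 2 or 3 and 9, 3 and 2 without siLuc-LNP mouse 1, 2 or 3. Nceh1 passed without siLuc-LNP mouse 1 (adjusted p = 0.0237) or mouse 2 (adjusted p = 0.0367), Taok3 without siHAS2-LNP mouse 1 (adjusted p = 0.0161) or siLuc-LNP mouse 3 (adjusted p = 0.0296), Klhl42 without siLuc-LNP mouse 1 (adjusted p = 0.0133), and Ppp1r10 and Gpt2 in none of these edgeR fits. In a fit to the 13 libraries without CCl4, Ppp1r10, Klhl42 and Taok3 (each with an adjusted p of 0.0824) and Gpt2 (0.113) did not pass by edgeR. Over all 14 alternative analyses the log2 fold change ran from 1.54 to 1.81 for Ppp1r10 and from 1.03 to 1.21 for Gpt2. The p-values of the main fit use the spread between mice within all groups of the series, including those with CCl4. They do not measure the spread of the compared mice alone.

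**Figure D2:**
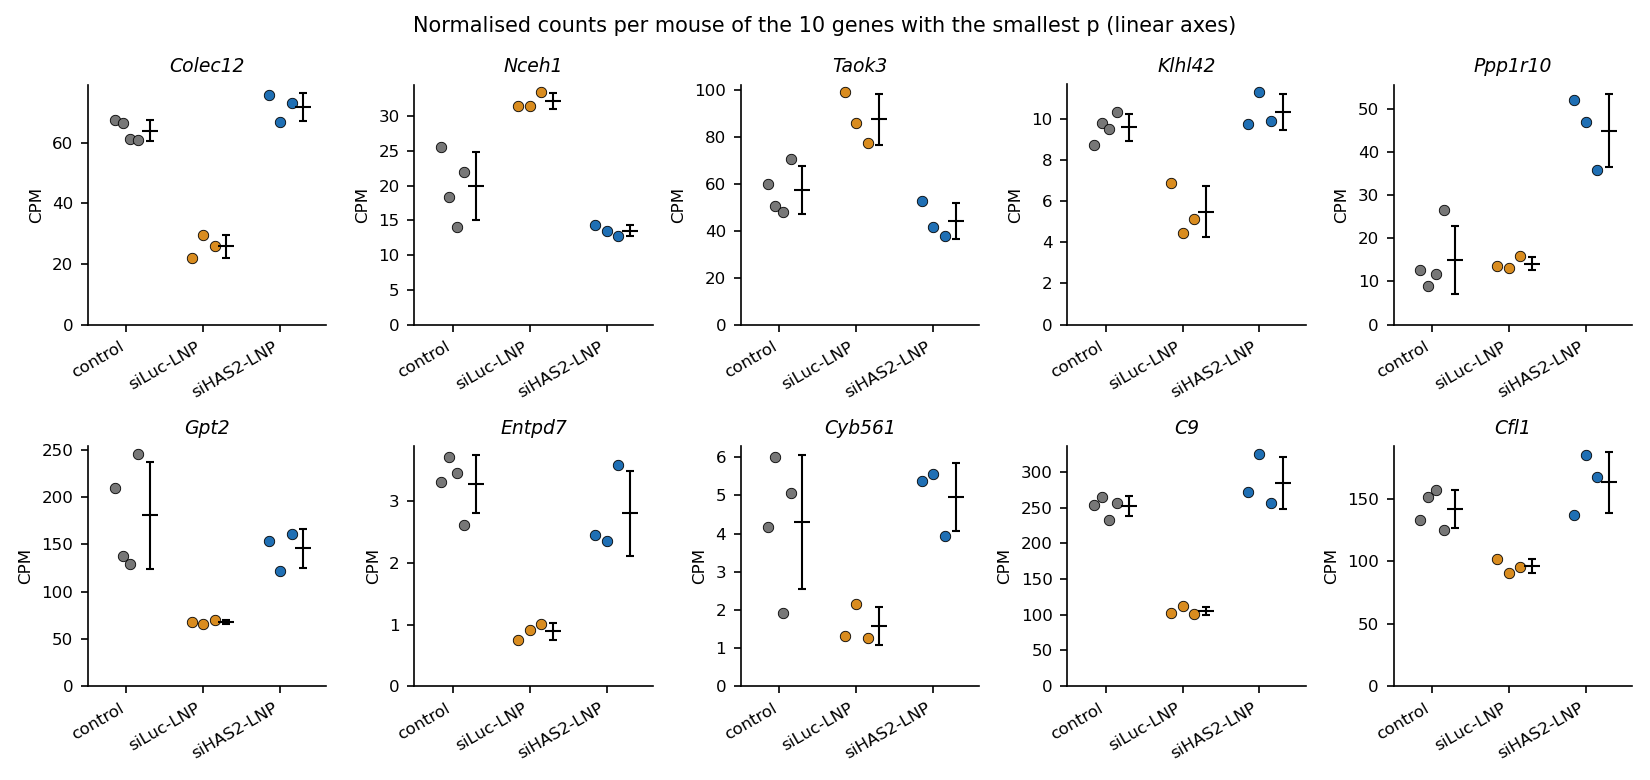
Normalised counts (CPM, linear axes) of the 10 genes with the smallest p in each control, siLuc-LNP and siHAS2-LNP mouse without CCl4, with points for mice and bars for the mean ± SD. The siHAS2-LNP and siLuc-LNP points do not overlap in any of the 10 genes, which a choice by p favours. For Colec12, Gpt2, Klhl42, Entpd7 and C9 the siLuc-LNP mice lie below all other mice shown.

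The next 4 genes by p did not pass. Their siLuc-LNP mice lay apart from their siHAS2-LNP mice, which a choice by p in this same contrast favours. Entpd7, an intracellular nucleotidase, was at 2.46, 2.36 and 3.59 CPM in the siHAS2-LNP mice, 0.744, 0.911 and 1.01 CPM in the siLuc-LNP mice, and 3.31, 3.72, 3.46 and 2.62 CPM in the control mice (log2 fold change 1.64, SE 0.32, edgeR adjusted p = 0.0514). C9, the pore-forming last component of the complement cascade, was at 272, 325 and 256 CPM against 103, 112 and 101 CPM, with 253, 265, 232 and 257 CPM in the control mice (log2 fold change 1.43, SE 0.28, edgeR adjusted p = 0.0514). For both genes the siHAS2-LNP mice were close to the control mice and the siLuc-LNP mice were at less than the lowest of either. Cyb561, an ascorbate-dependent electron carrier of secretory vesicle membranes, was at 5.37, 5.57 and 3.95 CPM against 1.32, 2.16 and 1.27 CPM, with a wide control range of 4.17, 6.02, 1.92 and 5.07 CPM (log2 fold change 1.66, SE 0.33, edgeR adjusted p = 0.0514). Cfl1, the actin-severing protein cofilin, was at 137, 185 and 168 CPM against 102, 90.6 and 95.8 CPM (log2 fold change 0.76, SE 0.15, edgeR adjusted p = 0.0536).

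Set against the control mice, which share the particle libraries with the comparison above and are therefore given only side by side, 30 genes passed for siLuc-LNP (0.213%) and 14 for siHAS2-LNP (0.0992%). Of the 10 genes just described, 6 passed for siLuc-LNP against control and 1 for siHAS2-LNP against control. Colec12 was lower in siLuc-LNP than in control livers (log2 fold change -1.31, edgeR adjusted p = 0.000905), and its value for siHAS2-LNP against control was 0.17 (adjusted p = 0.999). Gpt2 was lower in siLuc-LNP livers by the same measure (log2 fold change -1.41, edgeR adjusted p = 0.000531, against -0.31 and adjusted p = 0.915 for siHAS2-LNP). Klhl42 (-0.80, edgeR adjusted p = 0.0147), Entpd7 (-1.86, edgeR adjusted p = 0.00278), C9 (-1.26, edgeR adjusted p = 0.0449) and Cyb561 (-1.44, edgeR adjusted p = 0.0492) were likewise lower in siLuc-LNP than in control livers on the log2 scale. Ppp1r10 alone showed the other arrangement, with 1.58 for siHAS2-LNP against control (edgeR adjusted p = 0.00994) and -0.09 for siLuc-LNP (adjusted p = 0.992).

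Some genes stood apart from the control mice in both particle groups, in comparisons that share the control mice. Cd163, a haemoglobin scavenger receptor of macrophages chosen here after its values were seen, was at 1.13, 1.70 and 0.897 CPM in the siHAS2-LNP mice, 1.14, 0.798 and 0.439 CPM in the siLuc-LNP mice, and 18.7, 7.73, 11.6 and 19.9 CPM in the control mice. Its log2 fold change between the siRNAs was 0.68 (95% confidence interval -0.28 to 1.64, edgeR adjusted p = 0.712). Cx3cr1, the fractalkine receptor of monocyte-derived macrophages and chosen in the same way, was at 9.09, 10.6 and 8.91 CPM and at 18.7, 11.3 and 7.6 CPM against 1.73, 1.24, 2.82 and 0.695 CPM in the control mice (log2 fold change between the siRNAs -0.39, edgeR adjusted p = 0.808).

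The same siRNA contrast in mice with CCl4 gave 154 genes (1.09%), a number that ran from 4 to 230 when single mice were left out and was 0 when the 2 groups of this contrast were fitted alone (edgeR, 1844 genes at an unadjusted p under 0.05). CCl4 + siHAS2-LNP mouse 4 had 7044386 counts, the fewest in the series, and 15 genes passed without it. CCl4 + siLuc-LNP mouse 4 had the lowest limma-voom weight of the series, 0.2753, and 30 genes passed without it by edgeR. The share of all genes with the same sign in both contrasts was not determined. Of the 10 genes with the smallest p in uninjured liver, 8 had the same sign with CCl4 and 1 passed there. Klhl42 was that gene, at 9.79, 11.6, 11.5 and 8.28 CPM in the CCl4 + siHAS2-LNP mice and 6.7, 6.33, 6.96 and 5.86 CPM in the CCl4 + siLuc-LNP mice. The groups did not overlap (log2 fold change 0.68, SE 0.14, edgeR adjusted p = 0.0299), and the gene passed in 8 of the 15 alternative analyses of this contrast, with adjusted p between 0.00127 and 0.289. How many of all genes lacked overlap between these groups was not determined. A lack of overlap with CCl4, here and below, is thus description only.

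Colec12 with CCl4 was at 43.4, 44.7, 42.1 and 45.3 CPM against 39.9, 28.2, 22.2 and 38.4 CPM. All 4 CCl4 + siHAS2-LNP mice were above all 4 CCl4 + siLuc-LNP mice, by a log2 fold change of 0.45 (95% confidence interval 0.09 to 0.81) that did not pass (edgeR adjusted p = 0.188). Gpt2 with CCl4 was at 280, 216, 227 and 287 CPM against 163, 169, 214 and 154 CPM, with no overlap (log2 fold change 0.53, edgeR adjusted p = 0.124). Entpd7 gave 0.88 (edgeR adjusted p = 0.0776), also with no overlap, at 4.23, 5.37, 4.9 and 4.27 CPM against 3.06, 2.2, 1.56 and 3.29 CPM.

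Nceh1 gave -0.32 with CCl4 (95% confidence interval -0.67 to 0.04) and C9 gave 0.38 (95% confidence interval -0.12 to 0.87), each with the sign it had in uninjured liver and neither past the threshold (edgeR adjusted p = 0.364 and 0.459). Cfl1 gave 0.04 (95% confidence interval -0.23 to 0.31). Ppp1r10 was at 25.6, 29, 23 and 28.7 CPM in the CCl4 + siHAS2-LNP mice and 23.1, 28.7, 16.7 and 36.5 CPM in the CCl4 + siLuc-LNP mice (log2 fold change 0.01, 95% confidence interval -0.52 to 0.54). Taok3 was at 52.8, 56.4, 53.6 and 48.3 CPM against 44.7, 57.5, 51.4 and 43.0 CPM (log2 fold change 0.10, 95% confidence interval -0.19 to 0.40). The test of the difference between the contrasts did not pass for either, with adjusted p = 0.115 for Ppp1r10 and 0.0596 for Taok3 (edgeR). Over all genes 5 passed that test (0.0354%), and Cyb561 was the one among the 10, with a log2 fold change of -0.52 with CCl4 and a difference of -2.18 (SE 0.41, edgeR adjusted p = 0.0482).

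**Figure D3:**
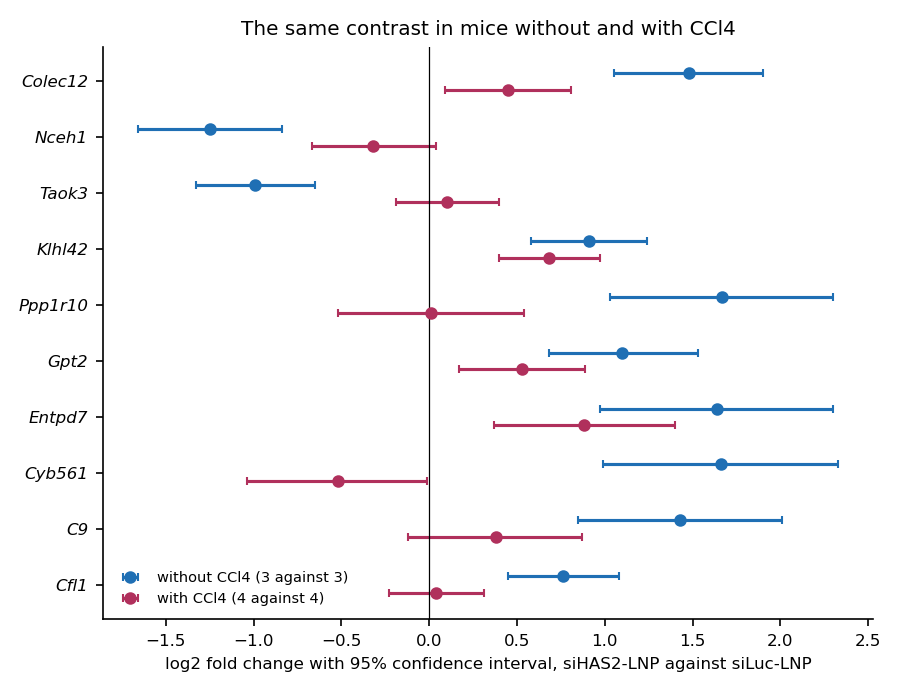
Log2 fold change of siHAS2-LNP against siLuc-LNP with its 95% confidence interval for the 10 genes with the smallest p in uninjured liver, without CCl4 (blue, 3 against 3 mice) and with CCl4 (red, 4 against 4 mice). The red intervals of Colec12, Klhl42, Gpt2 and Entpd7 lie above 0, those of Nceh1, Taok3, Ppp1r10, C9 and Cfl1 include 0, and that of Cyb561 lies below 0.

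Beyond single genes, 30 pathway lists and 16 cell type marker lists held 890 genes that were tested. A single list member passed, Gpt2 in the list of ATF4 stress response genes, which had a median log2 fold change of -0.06 over 24 members (-0.18 to 0.02). All statements on the other lists are therefore counts and medians, to be read beside the all-gene median of -0.0137 and the shares of 3.82% and 5.12% of genes with an unadjusted p under 0.05.

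One library bears on several of these lists. The siLuc-LNP mouse 1 library correlated with the other 5 at Spearman 0.96616 to 0.97362 over genes, while the other 5 correlated among themselves at 0.98045 to 0.99067, and limma-voom gave it a weight of 0.3355 beside 1.169 to 1.972 for the other 5. Its nuclear retained RNAs, such as Malat1, summed to 3002 CPM against 1002 to 1409 CPM in the siHAS2-LNP mice and a lowest siLuc-LNP value of 1086 CPM. In the control mice these sums ran from 900 to 1964 CPM. The list medians below are followed by their lowest and highest value when each of the 6 mice was left out in turn, an alternative added after seeing the data, and the part played by nuclear RNA in any list was not tested.

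Interferon-stimulated genes, the usual readout of nucleic acid sensing, had 36 members tested, of which 0 passed by edgeR, DESeq2 or limma-voom and 1 had an unadjusted p under 0.05 in edgeR. Set against the control mice, the list had a median of 0.05 for siHAS2-LNP and -0.19 for siLuc-LNP. Between the siRNAs the median was 0.28 with 30 positive values, and it ran from 0.15 without siLuc-LNP mouse 2 to 0.36 without siHAS2-LNP mouse 3. The values behind this were small, as for Stat2, a transcription factor of the interferon response, at 104, 110 and 100 CPM against 83.6, 88.7 and 81.5 CPM (log2 fold change 0.31, edgeR adjusted p = 0.493). Among 25 genes of small RNA and nucleic acid sensing machinery, 3 were higher and 3 lower at an unadjusted p under 0.05, with a median of -0.01 (-0.06 to 0.04) and 0 to 4 higher and 1 to 3 lower when single mice were left out. Rigi, a cytosolic sensor of double-stranded RNA, was at 46.1, 41.1 and 36.3 CPM against 27.8, 27.3 and 31.9 CPM (log2 fold change 0.51, edgeR adjusted p = 0.443). Stat2 and Rigi were picked with their values known, and the 3 lower genes of the sensing list are not shown, so Rigi does not stand for that list.

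Acute-phase proteins, which hepatocytes secrete in inflammation, had 32 members tested, with 7 higher and 1 lower at an unadjusted p under 0.05, 0 past the edgeR threshold and a median of 0.23, which ran from 0.14 without siHAS2-LNP mouse 2 to 0.29 without siLuc-LNP mouse 1. The 7 higher genes became 4 to 7. Set against the control mice, the list had a median of -0.08 for siHAS2-LNP and -0.37 for siLuc-LNP. The largest values between the siRNAs came from serum amyloid A and rested on 1 mouse. Saa1, named here after its values were seen, was at 82.9, 2565 and 70.9 CPM in the siHAS2-LNP mice, 37.2, 36.9 and 25.1 CPM in the siLuc-LNP mice, and 79.1, 526, 138 and 160 CPM in the control mice. Its groups did not overlap, but siHAS2-LNP mice 1 and 3 lay near the lowest control mouse and siHAS2-LNP mouse 2 far above the highest (log2 fold change 4.78, SE 1.08, edgeR adjusted p = 0.0792, DESeq2 adjusted p = 0.00122, limma-voom adjusted p = 0.133). Saa2 followed the same mice at 49.1, 1910 and 48.0 CPM against 20.1, 25.5 and 12 CPM, and reads of these closely related genes can be hard to assign. Orm2, an orosomucoid, was at 93.8, 233 and 77.8 CPM against 42.0, 21.5 and 16.0 CPM (log2 fold change 2.35, edgeR adjusted p = 0.194).

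Iron and heme genes had 20 members tested, with 2 higher and 5 lower at an unadjusted p under 0.05, a median of 0.00 (-0.12 to 0.05, with 2 to 6 lower genes when single mice were left out) and 0 past the edgeR threshold. The list had 10 positive and 10 negative values. Of these, DESeq2 called 1 higher and 2 lower and limma-voom called 2 higher and 3 lower. Hamp, which codes for hepcidin, the liver hormone that blocks iron release into blood, was at 36.9, 94.7 and 154 CPM in the siHAS2-LNP mice, 1195, 1051 and 425 CPM in the siLuc-LNP mice, and 413, 597, 413 and 563 CPM in the control mice. The siHAS2-LNP mice were below all others (log2 fold change -3.23, SE 0.70), with an adjusted p of 0.0755 by edgeR, 0.00926 by DESeq2 and 0.00338 by limma-voom. The iron genes are named here after their values were seen.

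Id1, Atoh8 and Smad7 are, like Hamp, induced by bone morphogenetic protein signalling in hepatocytes. Id1 was at 3.35, 5.33 and 3.23 CPM against 11.8, 23.5 and 8.13 CPM, (log2 fold change -1.86, adjusted p = 0.207 by edgeR and 0.0302 by DESeq2). Atoh8 was at 8.36, 15.2 and 13.5 CPM against 22.4, 30.0 and 20.2 CPM (log2 fold change -0.97, adjusted p = 0.405 by edgeR and 0.0338 by limma-voom), and Smad7 was at 6.10, 8.49 and 6.40 CPM against 10.3, 16.4 and 9.27 CPM (log2 fold change -0.77, edgeR adjusted p = 0.462). These 3 genes were picked out of the list after their values were seen, so their common sign is no support for a direction.

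On the side of iron uptake and heme synthesis, Tfrc, the transferrin receptor, was at 132, 27.5 and 42.1 CPM against 20.7, 13.3 and 13.4 CPM (log2 fold change 2.09, adjusted p = 0.0829 by edgeR and 0.0166 by DESeq2). Alas1, the first enzyme of heme synthesis in the liver, was at 261, 209 and 320 CPM against 58.6, 81.5 and 93.8 CPM (log2 fold change 1.76, edgeR adjusted p = 0.204). In both genes each siHAS2-LNP mouse was above each siLuc-LNP mouse, and both stood with Hamp among the iron genes that DESeq2 or limma-voom called and edgeR did not. With CCl4 the log2 fold change of Hamp was -0.38 (edgeR adjusted p = 0.808).

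**Figure D4:**
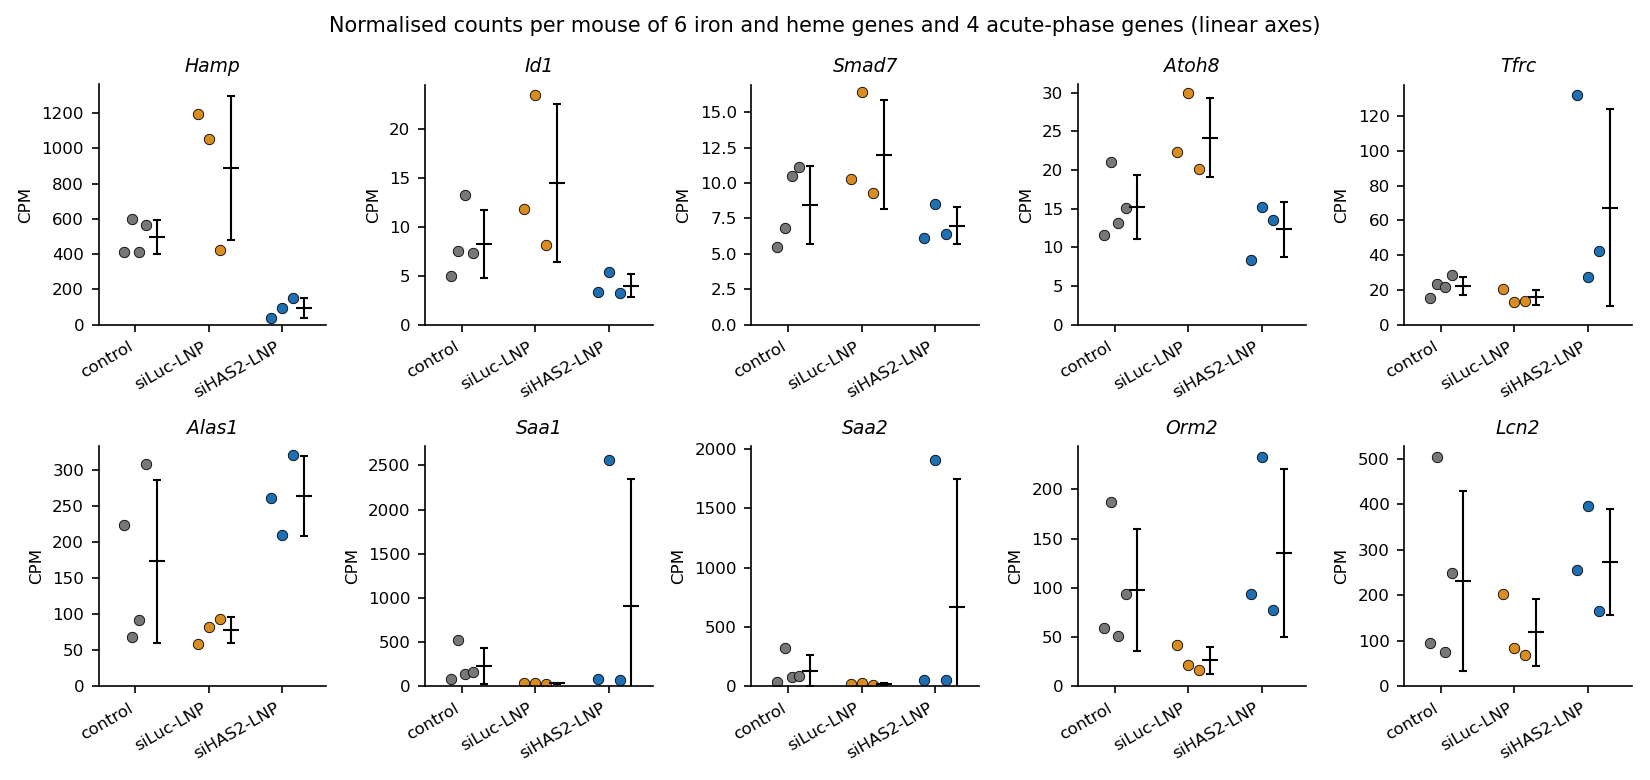
Normalised counts (CPM, linear axes) of 6 iron and heme genes and 4 acute-phase genes in each control, siLuc-LNP and siHAS2-LNP mouse without CCl4, with points for mice and bars for the mean ± SD. Hamp lies at or below 154 CPM in all siHAS2-LNP mice, and the Saa1 and Saa2 means of the siHAS2-LNP group are set by siHAS2-LNP mouse 2. None of the 10 genes passed the edgeR threshold.

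Lists of hepatocyte metabolism had medians within 0.5 of 0 on the log2 scale, apart from the major urinary proteins, and 0 members past the edgeR threshold. Cholesterol synthesis and uptake genes had a median of 0.47 over 32 members (27 positive, 2 with an unadjusted p under 0.05), which ran from 0.10 without siLuc-LNP mouse 1 to 0.68 without siLuc-LNP mouse 2. The 2 became 0 to 7. Set against the control mice, the list had a median of 0.32 for siHAS2-LNP and -0.09 for siLuc-LNP. Mvk, the mevalonate kinase of that pathway, which like the other list members named in this and the following paragraphs was picked with its values known, was at 54.9, 84.1 and 53.3 CPM against 18.8, 43.7 and 33.4 CPM, with siLuc-LNP mouse 1 the lowest (log2 fold change 1.00, edgeR adjusted p = 0.355). Genes of PPAR-alpha and fasting oxidation had a median of -0.27 over 33 members, which ran from -0.37 without siHAS2-LNP mouse 1 to -0.12 without siLuc-LNP mouse 3. At an unadjusted p under 0.05, 5 were lower and 0 higher, and the 5 became 2 to 10. Set against the control mice, the list had a median of -0.05 for siHAS2-LNP and 0.21 for siLuc-LNP. Acot3, a peroxisomal acyl-CoA thioesterase, was at 85.4, 35.7 and 35.2 CPM against 131, 145 and 132 CPM (log2 fold change -1.38, edgeR adjusted p = 0.283), and Fabp1, the liver fatty acid-binding protein, at 2586, 3117 and 3265 CPM against 4146, 4837 and 5136 CPM (log2 fold change -0.65, edgeR adjusted p = 0.400).

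Nrf2 antioxidant genes had a median of 0.22 over 19 members, which ran from 0.20 without siLuc-LNP mouse 1 to 0.34 without siLuc-LNP mouse 2. At an unadjusted p under 0.05, 5 were higher and 0 lower, and the 5 became 2 without siLuc-LNP mouse 1. Nqo1, a quinone reductase, was at 17.9, 13.6 and 14.8 CPM against 10.2, 9.74 and 8.31 CPM (log2 fold change 0.71, edgeR adjusted p = 0.380), and Gclm, the modifier subunit of glutathione synthesis, at 306, 300.0 and 304 CPM against 209, 244 and 231 CPM (log2 fold change 0.41, edgeR adjusted p = 0.323). Major urinary proteins had a median of -0.71 over 9 members, which ran from -1.15 without siLuc-LNP mouse 1 to 0.05 without siLuc-LNP mouse 2, with 1 higher and 0 lower at an unadjusted p under 0.05, and reads of these near-identical genes are split uncertainly. Heat shock genes had a median of 0.20 over 19 members (0.15 to 0.28), of which limma-voom called 2, Dnajb4 and Chordc1. Cell cycle genes, at low levels in resting liver, had a median of 0.38 over 43 members (0.27 to 0.52), as for Ccnb2 at 1.29, 2.74 and 2.69 CPM against 0.343, 0.968 and 0.923 CPM (log2 fold change 1.54, edgeR adjusted p = 0.349). Set against the control mice, the cell cycle median was 0.82 for siHAS2-LNP and 0.38 for siLuc-LNP. In the same order the medians were 0.12 and -0.14 for the Nrf2 genes and 0.25 and -0.05 for the heat shock genes. They were -0.97 and -0.26 for the major urinary proteins.

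Periportal hepatocyte genes had a median of 0.24 over 21 members, which ran down to 0.14 without siHAS2-LNP mouse 3, and pericentral ones -0.11 over 20, which ran from -0.17 without siLuc-LNP mouse 1 to 0.02 without siLuc-LNP mouse 2. Set against the control mice, the periportal median was 0.01 for siHAS2-LNP and -0.23 for siLuc-LNP, and the pericentral median 0.08 and 0.19. Tbx3, a transcription factor of pericentral hepatocytes named after its values were seen, was at 19.5, 28.5 and 19.0 CPM against 38.2, 44.5 and 50.3 CPM, without overlap (log2 fold change -0.99, adjusted p = 0.169 by edgeR, 0.0484 by DESeq2 and 0.00473 by limma-voom).

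**Figure D5:**
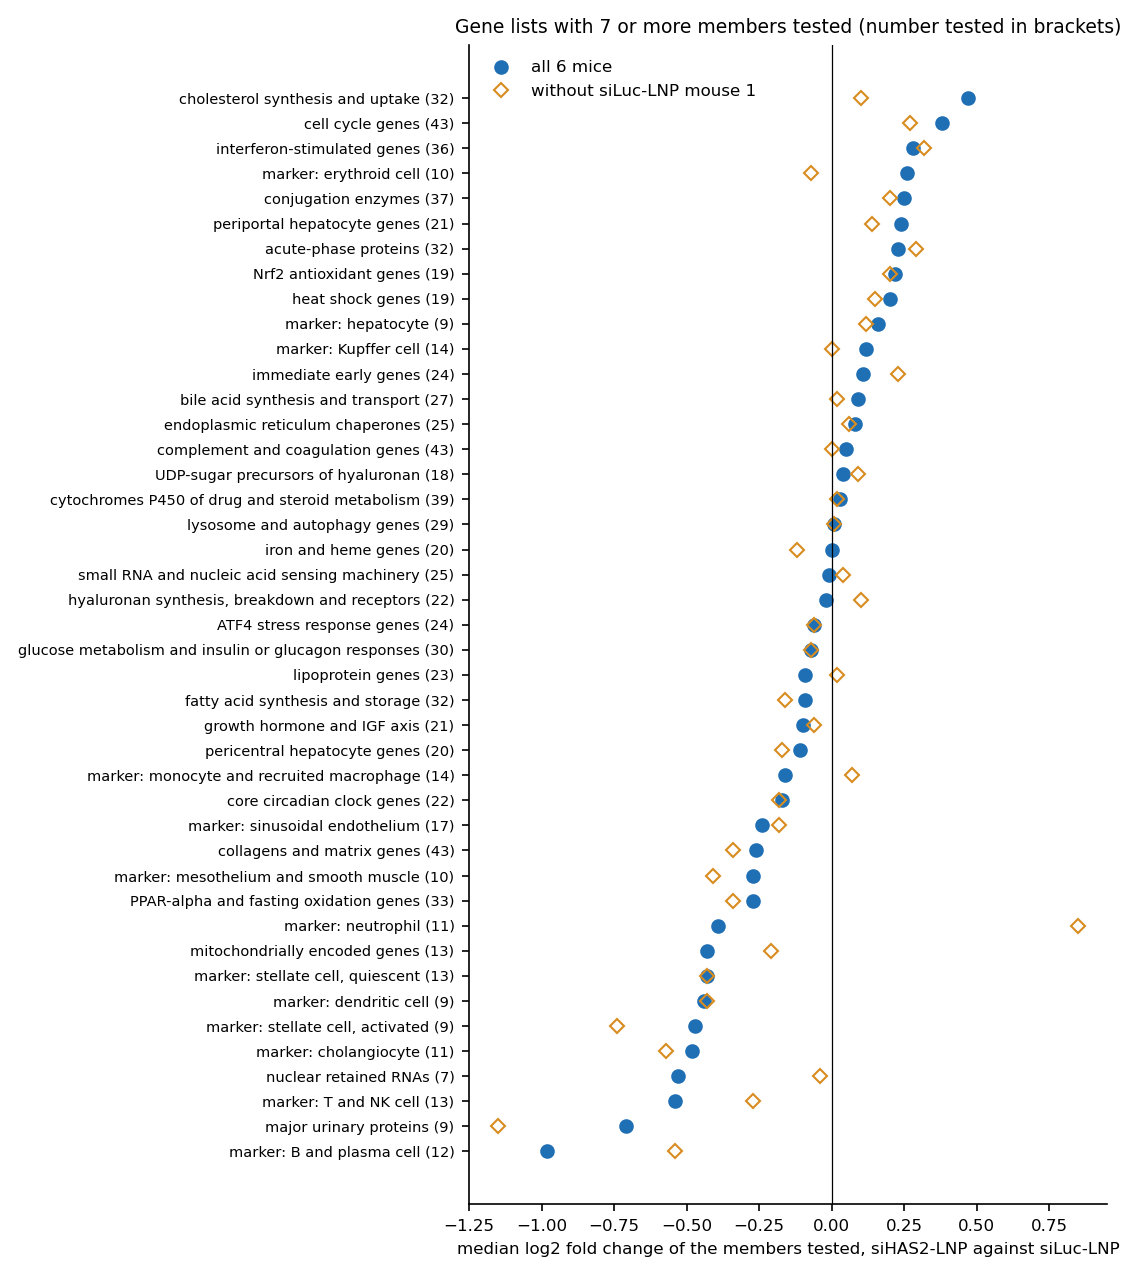
Median log2 fold change of siHAS2-LNP against siLuc-LNP for each gene list with 7 or more members tested, with all 6 mice (filled circles) and without siLuc-LNP mouse 1 (open diamonds), and a vertical line at 0. The cholesterol list moves from 0.47 to 0.10 and the neutrophil markers from -0.39 to 0.85 when that mouse is left out.

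The livers carried the markers of their tissue. Hepatocyte markers such as Alb summed to 159214 to 181938 CPM in the siHAS2-LNP mice and 135839 to 167011 CPM in the siLuc-LNP mice. Of 8 skeletal muscle markers 1 was tested, and it stood at no more than 1.08 CPM. Of 12 exocrine pancreas markers 1 was tested, at 13.3 to 18.9 CPM against 15.6 to 29.9 CPM. The 3 adipocyte markers tested, of 8 listed, summed to 2135 to 3630 CPM against 2039 to 3429 CPM. In bulk RNA, fewer cells of a type and less RNA per cell cannot be told apart, and no marker passed the threshold by edgeR, DESeq2 or limma-voom in any of the 16 lists.

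B and plasma cell markers had the lowest median of the marker lists, -0.98 over 12 members (all 12 negative, 6 with an unadjusted p under 0.05), which ran from -1.15 without siHAS2-LNP mouse 1 to -0.54 without siLuc-LNP mouse 1. Without siLuc-LNP mouse 1, 2 of the markers had an unadjusted p under 0.05. They summed to 39.7 to 41.1 CPM in the siHAS2-LNP mice, 42.6 to 68.1 CPM in the siLuc-LNP mice and 64.5 to 76.9 CPM in the control mice. Cd79a, a chain of the B cell receptor complex, was at 0.687, 0.283 and 0.419 CPM against 1.26, 1.25 and 1.19 CPM (log2 fold change -1.38, edgeR adjusted p = 0.353), while Igkc, the kappa light chain, was at 19.6, 20 and 23.3 CPM against 27.8, 17.4 and 18.5 CPM. T and NK cell markers had a median of -0.54 over 13 members, all negative, which ran from -0.64 without siLuc-LNP mouse 2 to -0.27 without siLuc-LNP mouse 1, and summed to 15.7 to 18.7 CPM against 19.5 to 31.2 CPM.

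Stellate cells, the cells in which Has2 is best known in liver, were represented by 13 quiescent and 9 activated markers. The quiescent markers had a median of -0.43 (12 of 13 negative), which ran from -0.65 without siLuc-LNP mouse 2 to -0.41 without siHAS2-LNP mouse 1. Of them 3 were lower at an unadjusted p under 0.05, which became 0 to 6 when single mice were left out, and without siLuc-LNP mouse 1 there were 1 higher and 1 lower. Their sums overlapped at 418 to 508 CPM in the siHAS2-LNP mice and 418 to 759 CPM in the siLuc-LNP mice, with 475 to 631 CPM in the control mice. Their median was -0.27 for siHAS2-LNP against control and 0.19 for siLuc-LNP against control. Reln, a secreted glycoprotein of quiescent stellate cells, was at 48.8, 43.0 and 48.3 CPM against 67.1, 61.0 and 88.2 CPM (log2 fold change -0.63, edgeR adjusted p = 0.5). The activated markers had a median of -0.47, which ran from -0.74 without siLuc-LNP mouse 1 to -0.31 without siHAS2-LNP mouse 1. They summed to 94.1 to 123 CPM against 129 to 168 CPM, and to 80 to 129 CPM in the control mice. Their median was 0.10 for siHAS2-LNP against control and 0.37 for siLuc-LNP against control. Collagens and matrix genes had a median of -0.26 over 43 members, 34 of them negative, with 2 higher and 4 lower at an unadjusted p under 0.05. That median ran from -0.34 without siLuc-LNP mouse 1 to -0.01 without siLuc-LNP mouse 3. For the same genes the median was 0.15 for siHAS2-LNP against control and 0.38 for siLuc-LNP against control.

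Kupffer cell markers had a median of 0.12 over 14 members, which ran from -0.02 without siLuc-LNP mouse 2 to 0.37 without siLuc-LNP mouse 3. Sinusoidal endothelial markers had a median of -0.24 over 17, which ran from -0.52 without siHAS2-LNP mouse 1 to 0.09 without siLuc-LNP mouse 3. The sign of both thus depended on single mice. Clec4f, a lectin particular to Kupffer cells, was at 136, 131 and 116 CPM against 106, 92.6 and 186 CPM (log2 fold change 0.00). Neutrophil markers had a median of -0.39 over 11 members, which ran from -0.97 without siHAS2-LNP mouse 2 to 0.85 without siLuc-LNP mouse 1. Their sums overlapped at 189 to 445 CPM in the siHAS2-LNP mice, 87.4 to 308 CPM in the siLuc-LNP mice and 108 to 565 CPM in the control mice.

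Genes whose annotated 3′ UTR carries the seed match of the Has2 guide were described last. The match is UUUGCAA, the reverse complement of guide bases 2 to 8, searched on the mRNA strand as TTTGCAA in the 3′ UTR of each gene's canonical transcript, and 1913 of the 12622 tested genes with a UTR held it (15.2%, exact 95% binomial interval 14.5 to 15.8). Among genes lower at an unadjusted p under 0.05, 142 of 617 held it (23.0%, interval 19.7 to 26.5), and among genes higher, 60 of 484 (12.4%, interval 9.59 to 15.7). The intervals treat genes as independent and leave out the spread between mice, so they are no test of the shares. The shares were not taken again without single mice, where the lower genes, 723 of all tested, became 482 to 877. The median log2 fold change was -0.0315 with a match and -0.0013 without.

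UTR length moved with these shares. Genes with a match had a median UTR of 2925 bases and those without 1127, and the median was 1592 for the lower and 1166 for the higher genes. Within 4 classes of UTR length with about equal numbers of genes, a division chosen after seeing the data, the share of lower genes with a match was 1.77%, 12.8%, 23.3% and 45.1% from the shortest to the longest class, beside 1.92%, 7.65%, 15.8% and 34.1% of the genes on neither side. The shares of the higher genes were 4.65%, 4.9%, 19.3% and 25.5%. The shifted match UUGCAAA, which overlaps the first in 6 letters, was held by 25.1% of the lower genes, 11.8% of the higher genes and 15.4% of all.

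Of the genes past the threshold, the lower gene Nceh1 held 1 match and Taok3 none, while the higher genes Colec12 and Gpt2 held 2 each and Klhl42 and Ppp1r10 none. A match is a description of the sequence and not a bound site, and in mice with CCl4 the medians were -0.0181 with a match and -0.009 without.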

How the data were processed

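PolyA RNA from whole liver was sequenced in paired-end mode by the authors (strand-marking kit, NextSeq500). Per the study's methods and the submitters' processing notes, the authors trimmed reads with Trimmomatic 0.39, aligned them to GRCm39 with HISAT2 and counted uniquely mapped reads per gene with featureCounts in R 3.4.2. The versions of HISAT2 and featureCounts and the strand setting are not given in the sources used here. The deposited values are raw read counts per gene, with no normalization, for 27 libraries. Reads mapping to several genes were not counted, so members of near-identical families are measured incompletely, and reads of overlapping antisense genes may not be separated.

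Genes averaging 10 or more counts across the 27 libraries were tested with edgeR 4.0.16 in R 4.3.3 (TMM scaling, quasi-likelihood test, 8 groups in one fit, Benjamini-Hochberg over 14114 genes, threshold 0.05). Levels are CPM with TMM library sizes. Standard errors and intervals are model-based at 95%. DESeq2 1.42.0, limma 3.58.1 (voom with sample weights), other filters and scalings, fewer groups in the fit, a replicate block, and leaving out each mouse were alternatives. Replicates differed by more than counting noise (chi-square per degree of freedom at least 17.3), so none was counted as a duplicate. In simulated counts for this 3 against 3 comparison (14114 genes), edgeR recovered 56 of 100 genes changed 2-fold and 93 of 100 changed 4-fold, with 6 false calls. DESeq2 recovered 69 and 96, with 16 false calls. The changed genes were drawn only from genes above a CPM minimum. Apart from the change, each gene had the same mean and the same spread in all groups. No simulated library was made outlying as siLuc-LNP mouse 1 was, so recovery and false calls in the real libraries were not measured.

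Named genes were those of the hyaluronan system and 3 fibrosis genes, up to 10 higher and 10 lower genes past the threshold, list members past the threshold, and the 10 genes with the smallest p. Members and gene lists were chosen with earlier results of these data known. Symbols were taken from GENCODE for GRCm39, which matched 54749 of 55414 identifiers. The siRNA strands came from the study's supplement, and their site and the 3′ UTRs from the GENCODE transcripts and annotation.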

Additional observations from a re-analysis of the deposited data

Results flagged for a closer look

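The siRNA effect differed with CCl4 in 5 genes by the interaction term of the edgeR fit (values are the log2 fold change with CCl4 minus that without). Smpdl3b, a lipid-modifying phosphodiesterase, had a difference of -2.16 (adjusted p = 0.0422), with 0.767, 1.18 and 1.73 CPM in the siHAS2-LNP and 0.629, 0.627 and 0.879 CPM in the siLuc-LNP mice, and 3.13, 3.86, 3.61 and 3.87 CPM against 12.1, 8.91, 10.9 and 6.83 CPM with CCl4. Slc17a8, a vesicular glutamate transporter, had a difference of 2.32 (edgeR adjusted p = 0.0422), from 8.0, 10.7 and 8.85 CPM against 37.1, 15.8 and 16.3 CPM without CCl4 and a log2 fold change of 1.00 with it. Cyb561 had a difference of -2.18 (edgeR adjusted p = 0.0482). AI480526, with a difference of 1.83 (edgeR adjusted p = 0.0422), was at 2.99, 3.25 and 3.95 CPM against 4.86, 3.13 and 3.47 CPM without CCl4 and at 4.5, 6.45, 7.06 and 6.94 CPM against 1.92, 2.2, 1.92 and 1.8 CPM with it. Gm15635, with a difference of 2.97 (edgeR adjusted p = 0.0482), was at under 2 CPM in all of these mice. The number of such genes was 0 by limma-voom (1657 at an unadjusted p under 0.05) and 0 to 26 when single mice were left out.

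Hyal2 stood at 51.9 CPM in CCl4 + siHAS2-LNP mouse 1, apart from 36.8 to 38.6 CPM in the other 3 mice of that group, by a gap of 0.879 of the group's range. It was the only such case in 48 groups of 4 samples tested, and chance gives about 1 in 20.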

How the results depend on the processing

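Among the named genes, 171 gene and alternative pairs kept their direction and their side of the threshold, 38 lost the call, 14 gained one and 1 changed sign (Acta2, 0.50 without siLuc-LNP mouse 2, and -1.82 to 0.50 over the fits without single mice). The 6 genes between siHAS2-LNP and siLuc-LNP in uninjured liver became 77 by DESeq2, 171 by limma-voom, 158 with no low-count filter, 1262 at an unadjusted p, and 1 to 9 without single mice. For siLuc-LNP against control, the 30 genes became 67, 84, 143 and 960 under the first 4 of these settings, 14 to 28 without single mice and 12 with only the compared groups. For siHAS2-LNP against control, the 14 became 54, 85, 193 and 914, 8 to 12 without single mice and 32 with only the compared groups. With CCl4, the 154 became 412, 12, 656 and 2349, 4 to 230 without single mice, 68 at a log2 fold change of at least 1, and 0 with only the compared groups (edgeR, 1844 unadjusted). The 5 genes that differed with CCl4 became 67, 0 (limma-voom, 1657 unadjusted), 304 and 1612, 0 to 26 without single mice, and 0 with only the compared groups (edgeR, 1418 unadjusted). The fit to the 13 libraries without CCl4 was not run for the last 2 comparisons. The split of 111 higher and 43 lower with CCl4 was 80 and 46 with DESeq2 size factors. The 1 list gene became 8 by DESeq2, 19 by limma-voom (added after seeing the data) and 0 without any single mouse (edgeR). The 23.0% of lower genes with a seed match was 1.77%, 12.8% and 45.1% in the shortest, the next and the longest of 4 classes of UTR length.

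Replicate numbers were not taken as pairs in the main fit. Same-numbered siHAS2-LNP and siLuc-LNP mice correlated at -0.169, -0.0424 and 0.246 in their deviations from the group means, and from -0.219 to -0.00096 with CCl4. With so few mice these values cannot exclude a pairing. With the replicate block, edgeR called 1 gene in uninjured liver (Noct, adjusted p = 0.0202, none of the 6, whose adjusted p ran from 0.111 to 0.387), 0 for siLuc-LNP against control (443 unadjusted), 60 for siHAS2-LNP against control, 0 with CCl4 (1507 unadjusted), 1 for the difference and 0 of the list genes.
Has2 lies below what this depth detects, and 3 mice a group left a median SE of 0.239 on the log2 scale.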
